A study of Mus musculus with 13 samples.

Results

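Solute carriers are membrane proteins that move sugars, amino acids, ions, vitamins, metals, nucleosides and drugs across the surface of a cell or between its compartments. They were followed here in total liver of mice given TAA, as 118 genes read with 145 of the 25697 probes on the array. A probe belonged to this group when its annotation symbol began with Slc and a digit and its detection p-value was under 0.01 on at least 3 of the 13 arrays. That p-value comes from where a probe's signal lies among the array's negative control beads. The annotation held 474 such probes for 326 genes. Of these, 100 probes for 65 genes were left out by name, namely the mitochondrial family Slc25, the zinc families Slc30 and Slc39, and Slc1a2, Slc10a1, Slc27a5, Slc40a1 and Slc51b. A further 229 probes, standing for 143 genes, did not pass detection. The name did not always fit, since 4 of the 118 genes (Slc4a1ap, Slc7a6os, Slc9a3r1 and Slc9a3r2) are named after a carrier and are not carriers themselves. At the edge of the rule, Slc15a2, Slc29a2 and Slc44a4 were detected on exactly 3 arrays, with mean log2 intensities of 4.80, 4.88 and 4.90 over all arrays. The 10 probes detected on 2 arrays, which stayed outside, had means between 4.70 and 5.01.

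In liver, carriers of the sinusoidal membrane take up amino acids, organic anions, fatty acids and vitamins from blood for metabolism, and others return glucose and nucleosides to it. Carriers inside the cell load the Golgi with nucleotide sugars and empty lysosomes of amino acids, haem and metals. Hepatocytes hold most of the uptake carriers, while macrophages and bile duct cells have carriers of their own.

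The arrays were Illumina MouseRef-8 BeadArrays with 1 colour, each given total liver RNA of female C57BL/6 mice. The groups were 3 untreated samples (Naive) and samples taken after 1 week (3 samples), 4 weeks (4 samples) and 6 weeks (3 samples) of TAA, here called Week 1, Week 4 and Week 6. TAA is the usual short form of the liver toxin thioacetamide, and the series is about liver fibrosis after toxic injury. The labels give no dose, route, dosing scheme or age. Nor do they state whether each sample is an animal of its own, so p-values measure only the spread between these samples, which may be technical. In bulk tissue, fewer cells of a type and less RNA per cell cannot be told apart.

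Arrays had mean intensities of 472 to 587 in Naive, 177 to 479 at Week 1, 456 to 611 at Week 4 and 195 to 273 at Week 6. Array Week 1 C was the dimmest, and 61.4% of the solute carrier probes were detected on it, against 76.6% to 92.4% on the other 12 arrays. The arrays also divided in a way that the labels do not give: 7 genes that are no solute carriers (Gm7609, Rhbdl2, Prf1, Zxda, Pisd-ps2, Ifngr2 and Erich5) were at least 1 log2 unit higher on each of Week 1 B, Week 1 C and the 3 Week 6 arrays than on any of the other 8. The 5 arrays are called the second set and the other 8 the first set below. Week 6 lies wholly in the second set while Naive and Week 4 lie in the first, so no set holds Week 6 with either of them. Week 1 alone has arrays in both, so a model term for the set rests on Week 1 A against Week 1 B and Week 1 C. It lowers the precision of changes that involve Week 1 or Week 6. Where a call below ends with this term, that loss and a difference between the sets cannot be told apart. Of the solute carrier genes, Slc7a6os alone had no overlap between the sets. Of 8 hepatocyte markers 7 were tested, and their summed intensity ran from 110000 to 131000 in Naive, 116000 to 130000 at Week 1, 101000 to 111000 at Week 4 and 102000 to 125000 at Week 6. Against Naive, 2, 1 and 3 of the 7 fell at the 3 times and 0 rose: Serpina1c at each, Asgr1 at Week 1 and Week 6 and Cps1 at Week 6, with changes between -1.16 and -0.59. When the set of each array was a term of the model, 0, 1 and 0 fell. Their part in the falls of carriers was not tested. None of 5 kidney markers was detected on any array.

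Of the 118 genes, 73 were detected on all 13 arrays, whereas 15 were detected on no Naive array, 9 on no Week 1 array, 2 on no Week 4 array and 4 on no Week 6 array. Calls rest on a limma model of all 13 arrays, at a Benjamini-Hochberg adjusted p under 0.05 over 8027 tested genes. At Week 1, 9 solute carriers rose and 29 fell against Naive, or 7.63% and 24.6% of them, where 13.3% of all genes rose and 12.3% fell. At Week 4, 10 rose and 26 fell (8.47% and 22%), where 15.2% of all genes rose and 12.9% fell. At Week 6, 21 rose and 26 fell (17.8% and 22%), where 22.4% of all genes rose and 16.4% fell. The share that fell was thus above that of all genes at each time, and the share that rose was below it. The median log2 change was -0.19, -0.19 and -0.20 at the 3 times, against 0.02, 0.03 and 0.09 over all genes. With genes detected on no array of 1 or both of the 2 groups set at their lower bound, it was -0.11, -0.18 and -0.17, against 0, 0 and 0.02 over all genes. The 3 comparisons share the Naive arrays, and the detection rule used the same arrays, so these counts are descriptive.

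The split into higher and lower depended on the scaling. Under median scaling in place of quantile normalization the median log2 change of all genes was 0.20, -0.01 and 0.26 at Week 1, Week 4 and Week 6, against 0.02, 0.03 and 0.09 as reported. Under it 19 solute carriers rose and 21 fell at Week 1, where 18.8% of all genes rose and 10.8% fell. At Week 4, 8 rose and 32 fell (13.4% and 14.4% of all genes), and at Week 6, 27 rose and 26 fell (28.5% and 14.8%). The median of the solute carriers turned to 0.05 at Week 1 and 0.13 at Week 6, both below that of all genes. All changes below are therefore relative to the other genes on the arrays. With the array set in the model, 5 rose and 15 fell at Week 1 (8.06% and 6.24% of all genes), 10 rose and 31 fell at Week 4 (16.4% and 13.8%), and 6 rose and 12 fell at Week 6 (6.45% and 5.18%).

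**Figure D1:**
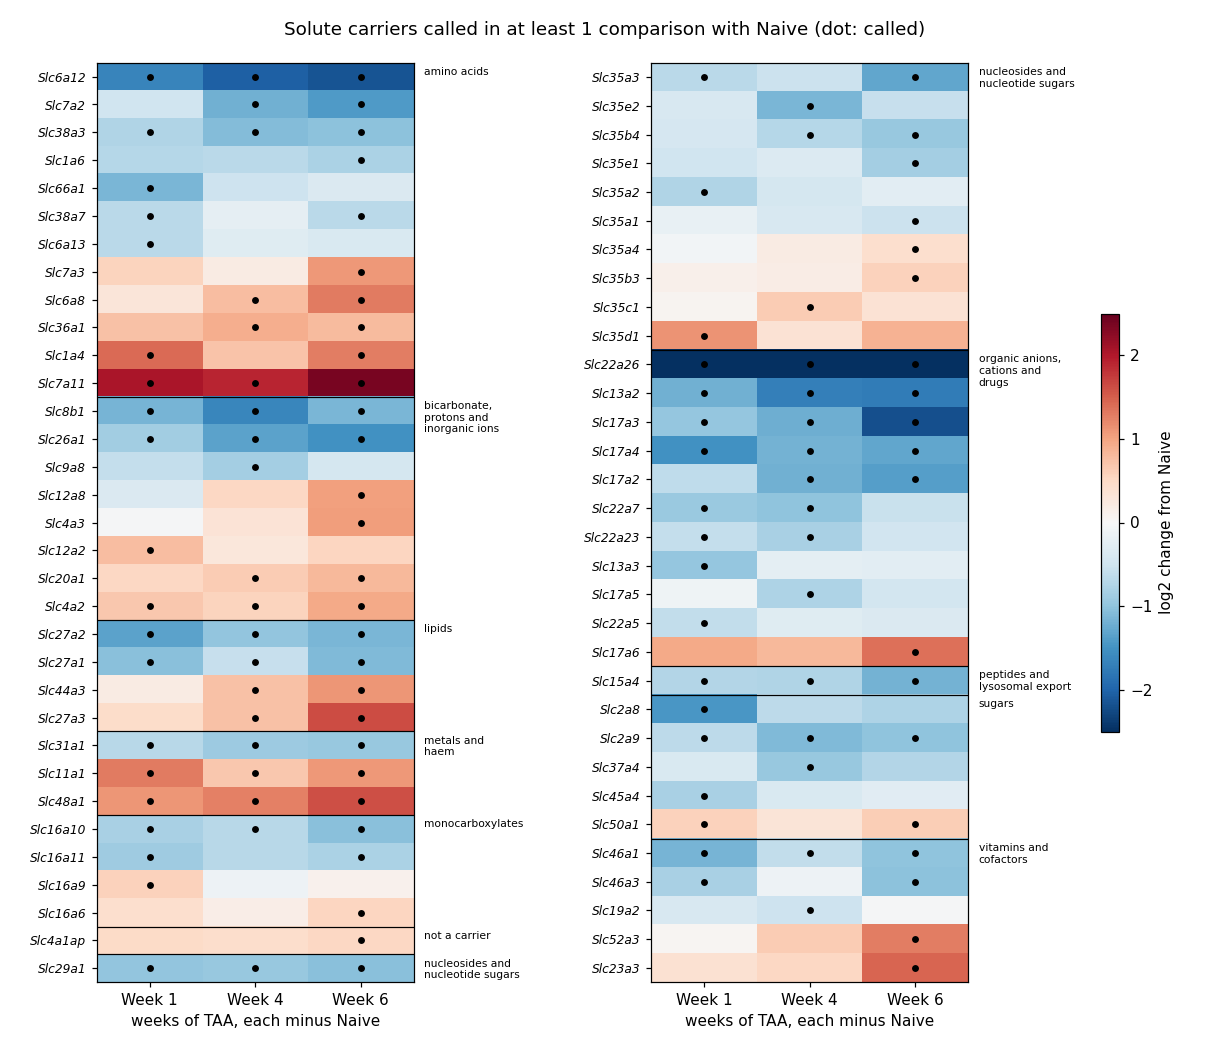
Log2 change from Naive (colour, ending at -2.5 and 2.5) of the solute carriers called in at least 1 comparison with Naive, as columns for Week 1, Week 4 and Week 6 and rows grouped by what is carried, with a dot where the change was called. For genes not detected in 1 of the groups the colour is the fitted value and no bound. Most of the rows for organic anions, cations and drugs are blue at all 3 times, while Slc7a11, Slc48a1 and Slc11a1 are red throughout.

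The class of organic anions, cations and drugs, which handles bile acids, urate, conjugated metabolites, carnitine and drugs, had 17 tested genes. Of them 8 fell at Week 1, 8 at Week 4 and 5 at Week 6, where 12.3%, 12.9% and 16.4% of all genes fell, and 0, 0 and 1 rose. With the array set in the model 3, 10 and 5 fell and 0, 1 and 0 rose, where 6.24%, 13.8% and 5.18% of all genes fell. At an unadjusted p under 0.05, 10 of the 17 differed from Naive at Week 1, 11 at Week 4 and 8 at Week 6. Of all 8027 genes 3028, 3190 and 3845 did so, and at Week 6 the share of the class was near that of all genes. Their median log2 change was -0.60, -0.77 and -0.48, or -0.59, -0.82 and -0.38 under median scaling, with 6, 9 and 5 falls and 0, 0 and 2 rises. The class is small, and no test of the class itself was made.

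**Figure D2:**
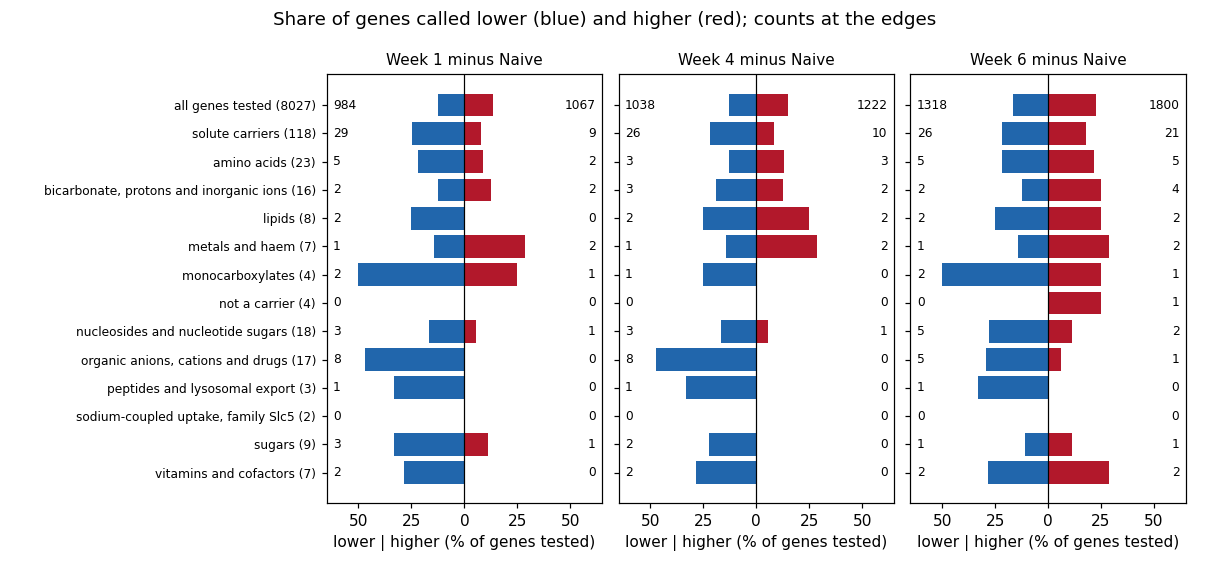
Share of tested genes called lower (blue, to the left) and higher (red, to the right) than Naive at each time, in percent, for all genes, all solute carriers and each class, with the number tested in parentheses and the counts at the edges. The organic anion, cation and drug class shows 8 falls and 0 rises at Week 1 and at Week 4, where all genes split nearly evenly.

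The largest fall at each of the 3 times was that of Slc22a26, a member of the organic anion transporter family. Its log2 intensity was 8.83, 9.61 and 9.43 in Naive, 6.27, 6.33 and 7.75 at Week 1, 5.41, 6.89, 4.87 and 5.81 at Week 4, and 5.09, 4.70 and 4.66 at Week 6. Every TAA array lay below every Naive array, and at Week 6 no array detected the gene, nor did 1 of the 4 Week 4 arrays. It fell at Week 1 by a log2 change of -2.51 ± 0.45 (SE; adjusted p = 0.00134) and at Week 4 by -3.54 ± 0.42 (adjusted p = 4.61e-05). At Week 6 it lay at least 16.7-fold below Naive (adjusted p = 8.31e-06) and at least 2.94-fold lower than at Week 1 (adjusted p = 0.0159, not called without array Week 6 C). A fold written as at least sets the brighter group's mean against the dimmer group's lowest detectable signal, since a gene detected on no array of a group has only a bound there. The adjusted p beside such a fold belongs to the fitted change in limma, and the bound itself was not tested. The window around its start, which is chr19:7802618-7802917 on the - strand of GRCm38.p6, is shown because this gene led the falls. It is credited to RefSeq and covers 250 bases before the start to 50 after it.
Slc22a26: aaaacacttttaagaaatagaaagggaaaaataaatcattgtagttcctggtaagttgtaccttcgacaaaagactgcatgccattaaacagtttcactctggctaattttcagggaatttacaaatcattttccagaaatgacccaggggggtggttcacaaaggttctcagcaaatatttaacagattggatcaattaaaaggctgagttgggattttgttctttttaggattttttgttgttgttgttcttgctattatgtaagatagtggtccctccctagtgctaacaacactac
Neither strand of this window held any of the 5 motifs searched, which are listed with Slc7a11 below.

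Slc17a2, Slc17a3 and Slc17a4 belong to the sodium-phosphate family Slc17, whose liver members carry urate and other organic anions, and they also fell. Slc17a3 had log2 intensities of 6.82, 7.47 and 7.49 in Naive, 6.75, 5.96 and 6.19 at Week 1, 5.97, 6.13, 5.91 and 6.10 at Week 4 and 5.01, 5.58 and 4.61 at Week 6. Its Week 6 arrays were lower than all others, and 1 of those 3 detected it. The change was -0.96 ± 0.26 at Week 1 (adjusted p = 0.0161), -1.23 ± 0.25 at Week 4 (adjusted p = 0.00197) and -2.19 ± 0.26 at Week 6 (adjusted p = 3.81e-05). Against Week 1, Week 6 was lower by a change of -1.24 ± 0.26 (adjusted p = 0.0114), and between the 3 Week 6 arrays and the 2 Week 1 arrays of the second set the difference was -1.01. The Week 1 call ended with the array set in the model (adjusted p = 0.338) and when Naive B, Naive C or Week 1 B was left out, and the call of Week 6 against Week 1 ended without Week 6 C. Slc17a4 fell by 1.51 ± 0.28, 1.18 ± 0.26 and 1.29 ± 0.28 at Week 1, Week 4 and Week 6, and its arrays did not overlap with Naive at any time. Slc17a2 changed by -0.63 ± 0.22 at Week 1 without a call (adjusted p = 0.0505) and fell by 1.20 ± 0.21 at Week 4 and 1.38 ± 0.22 at Week 6 (adjusted p = 7.61e-04 and 2.91e-04). A second probe of Slc17a2, detected on 13 arrays, changed by -0.7, -1.16 and -1.76. With every probe tested in limma the adjusted p was 0.0340, 0.00104 and 4.41e-05. Between Week 6 and Week 1 that probe changed by -1.06 (adjusted p = 0.0112).

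Slc13a2 encodes the sodium-dicarboxylate cotransporter, which takes up citrate and succinate. Its log2 intensity was 5.88, 6.37 and 5.96 in Naive, 4.89, 5.25 and 4.45 at Week 1, 4.25, 4.35, 4.48 and 4.43 at Week 4 and 4.30, 4.31 and 4.35 at Week 6. All Naive arrays detected it, against 1 Week 1 array and 0 of the Week 4 and Week 6 arrays. It fell by 1.21 ± 0.20 at Week 1 (adjusted p = 8.08e-04), was at least 2.02-fold lower at Week 4 (adjusted p = 2.88e-05) and at least 1.80-fold lower at Week 6 (adjusted p = 2.73e-05). This gene is close to background, and under median scaling 1 of its 3 calls remained. Slc13a3, a relative with high affinity for dicarboxylates, fell at Week 1 by 0.97 ± 0.22 (adjusted p = 0.00647, or 0.0647 with the array set in the model) and without a call changed by -0.25 ± 0.21 at Week 4 and -0.27 ± 0.22 at Week 6. Week 4 was higher than Week 1 by 0.72 ± 0.21 (adjusted p = 0.0461), a call that ended whichever array was left out. A second probe of Slc13a3, detected on 12 arrays, changed by -1.53, -0.13 and -0.53 at the 3 times. With every probe tested in limma, the first of these was called (adjusted p = 0.00131). Its Week 4 arrays were higher than Week 1 by 1.41 (adjusted p = 0.00676). Slc22a7, which carries organic anions such as prostaglandins, fell by 0.92 ± 0.27 at Week 1 and 1.00 ± 0.25 at Week 4 (adjusted p = 0.0224 and 0.00900), and Slc22a5, the carnitine transporter, fell by 0.61 ± 0.21 at Week 1 (adjusted p = 0.0451). The Week 1 call of Slc22a7 ended without Naive A, Naive C, Week 1 A or Week 1 B and its Week 4 call without Naive C, and the call of Slc22a5 ended without any 1 array but Naive B. Both Week 1 calls ended with the array set in the model (adjusted p = 0.0808 and 0.254). Slc17a6, a vesicular glutamate transporter of neurons, was the single riser of the class, at least 1.39-fold higher at Week 6 (adjusted p = 0.00876). Its change at Week 6 was 0.14 with the array set in the model (adjusted p = 0.894).

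**Figure D3:**
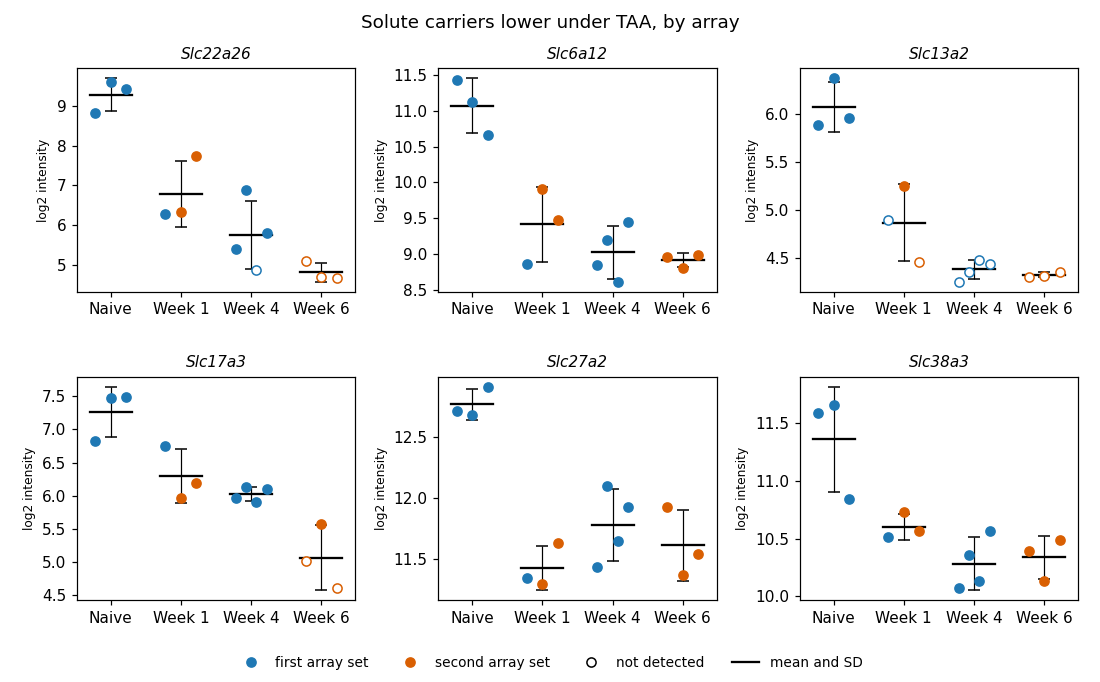
Log2 intensity of 6 solute carriers on each array, with the mean and SD of each group as bars, colour for the array set and open circles where the probe was not detected. Each gene is higher on all 3 Naive arrays than on any TAA array, and Slc22a26 and Slc13a2 reach undetected levels by Week 6.

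Probes of 2 hepatic carriers disagreed. Slc2a2 encodes the glucose transporter GLUT2, and its tested probe changed by -0.92 ± 0.36, -0.81 ± 0.34 and -0.80 ± 0.36 at Week 1, Week 4 and Week 6 without a call (adjusted p = 0.0735, 0.0876 and 0.0926). Its other 2 probes were detected on all Naive and Week 4 arrays and on 2 of 3 Week 1 arrays. At Week 6, 1 of them was detected on 1 array and the other on none. On both, every Week 1 and Week 6 array lay below every Naive array. With every probe tested in limma, they changed by -1.87 and -2.26 at Week 1 (adjusted p = 3.07e-04 and 1.16e-04). The fitted changes at Week 6, where most arrays gave background values, were -2.66 and -2.64 (adjusted p = 7.50e-06 and 1.00e-05). At Week 4 they changed by -0.35 and -0.61 without a call. Slc47a1 encodes MATE1, the exporter of organic cations into bile, and its tested probe changed by -0.34 ± 0.26, -0.67 ± 0.24 and -0.60 ± 0.26, again without a call (adjusted p = 0.367, 0.0517 and 0.0829). Its other 2 probes were detected on all Naive and Week 4 arrays, on 2 of 3 Week 1 arrays and on 3 and 2 Week 6 arrays. On both, every Week 1 and Week 6 array lay below every Naive array. With every probe tested in limma, each changed by -1.76 at Week 1 (adjusted p = 3.60e-04 and 0.00546). They changed by -1.06 and -0.95 at Week 4 (adjusted p = 0.00522 and 0.0731) and by -2.32 and -2.59 at Week 6 (adjusted p = 1.78e-05 and 1.71e-04). The 2 other probes of each gene averaged lower at Week 1 and at Week 6, the groups that hold the dimmest arrays, than at Week 4, and the part of array brightness was not tested.

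Carriers of amino acids and related compounds were called in both directions. Of 23 tested genes 2 rose and 5 fell at Week 1, 3 rose and 3 fell at Week 4, and 5 rose and 5 fell at Week 6. Of all genes 13.3% rose and 12.3% fell at Week 1, 15.2% and 12.9% at Week 4, and 22.4% and 16.4% at Week 6. The Week 4 shares of this class (13% and 13%) and its share that rose at Week 6 (21.7%) were near these. Counts against Naive of the classes and lists below stand beside the same shares of all genes, and no class was tested. Slc6a12 encodes the betaine and GABA transporter BGT1, by which cells take up betaine as an osmolyte. It had log2 intensities of 11.42, 11.12 and 10.66 in Naive, 8.87, 9.91 and 9.48 at Week 1, 8.85, 9.20, 8.62 and 9.45 at Week 4 and 8.96, 8.81 and 8.99 at Week 6. All TAA arrays lay below all Naive arrays, by a change of -1.65 ± 0.27 at Week 1, -2.04 ± 0.26 at Week 4 and -2.15 ± 0.27 at Week 6 (adjusted p = 8.04e-04, 7.31e-05 and 5.73e-05). Slc38a3, the glutamine transporter SNAT3, fell by 0.76 ± 0.22, 1.08 ± 0.21 and 1.03 ± 0.22 (adjusted p = 0.0208, 0.00142 and 0.00219), the Week 1 call ending without Naive A, Naive B or Week 1 A. Its Week 1 and Week 6 calls ended with the array set in the model (adjusted p = 0.0872 and 0.0731). Slc7a2, the cationic amino acid transporter CAT2 that supplies arginine, changed by -0.49 ± 0.31 at Week 1 without a call and fell by 1.21 ± 0.29 at Week 4 and 1.42 ± 0.31 at Week 6 (adjusted p = 0.00604 and 0.00230). Its Week 6 call ended with the array set in the model (adjusted p = 0.0600). A second probe of Slc7a2, detected on 11 arrays, changed by 0.12, -0.6 and -0.49 at the 3 times, without a call when every probe was tested. Slc66a1, which exports cationic amino acids from lysosomes, fell at Week 1 by 1.14 ± 0.31 (adjusted p = 0.0146), where array Week 1 C at 4.75 lay below the other 2 at 6.18 and 6.26. Without that array the change was -0.65, and the call ended with the array set in the model (adjusted p = 0.284) and when only the 2 groups were fitted. Slc7a5, Slc6a6, Slc6a9 and Slc38a4, carriers of large neutral amino acids, taurine, glycine and neutral amino acids, had no call against Naive, with changes between -0.87 and 0.47.

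Slc7a11, detected on no Naive array, rose at all 3 times, with calls that depended on the setting. It encodes xCT, the exchanger that brings in cystine for glutathione synthesis in return for glutamate. Its log2 intensity was 4.32, 4.29 and 4.37 in Naive, 6.99, 7.48 and 4.62 at Week 1, 5.71, 5.56, 7.61 and 6.05 at Week 4 and 6.50, 6.16 and 7.46 at Week 6. No Naive array detected it, 2 of 3 Week 1 arrays did, and all 7 arrays of Week 4 and Week 6 did. Array Week 1 C, the dimmest, was the one without it. It was at least 1.94-fold higher at Week 1 (adjusted p = 0.0274), at least 1.77-fold higher at Week 4 (adjusted p = 0.0249) and at least 2.46-fold higher at Week 6 (adjusted p = 0.00793). The Week 1 call ended without any 1 array but Week 1 C, the Week 4 call without any Naive array or Week 4 C, and the Week 6 call held without each array in turn. The adjusted p was 0.0644, 0.0274 and 0.0739 with the array set in the model. The Week 1 and Week 4 calls also ended without background correction, with no detection filter and in the value table of the authors. The Week 1 call ended when only the 2 groups were fitted, the Week 4 call with a larger offset in the background correction, and the Week 6 call in the value table with the replicate block. The partner chain of this exchanger, Slc3a2, was detected on 1 array only and was not tested.

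The window around the start of Slc7a11, chr3:50443564-50443863 on the - strand of GRCm38.p6 in RefSeq, is shown because it holds a pair of amino acid response element cores. Capitals mark the motif TGATGNAA on either strand.
Slc7a11: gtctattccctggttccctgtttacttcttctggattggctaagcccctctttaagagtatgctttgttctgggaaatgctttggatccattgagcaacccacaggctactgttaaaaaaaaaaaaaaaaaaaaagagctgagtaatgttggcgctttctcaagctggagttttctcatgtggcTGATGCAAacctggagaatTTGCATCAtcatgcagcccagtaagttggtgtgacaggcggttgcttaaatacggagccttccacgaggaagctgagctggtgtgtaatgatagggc
The matches begin at -66 on the strand of the gene and at -47 on the opposite one, counted from the start. This motif occurs in 3.97% of the 32851 promoter windows of the table and in 4.41% of the 136 windows matched to 93 of the 118 solute carrier genes. The other motifs searched on both strands were TGACNNNGC, the core of the antioxidant response element (12.4% of all windows and 15.4% of solute carrier windows), the E-box CACGTG (7.15% and 12.5%), CAAAGTCCA for HNF4 (0.475% and 0%) and TATAAA (13.6% and 7.35%). None of these 4 was found in the Slc7a11 window, and a match is a description of letters and not of a site in use. Of 5 tested regulators of carrier genes 1 rose and 0 fell at Week 1, 2 rose and 0 fell at Week 4, and 2 rose and 1 fell at Week 6. Nfe2l2, which encodes the factor NRF2 that acts at antioxidant response elements, changed by 0.44 ± 0.20 at Week 1 without a call and rose by 1.30 ± 0.19 at Week 4 and 1.09 ± 0.20 at Week 6 (adjusted p = 2.07e-04 and 8.31e-04). Ddit3, a stress-induced factor, rose by 1.76 ± 0.24, 1.61 ± 0.22 and 1.99 ± 0.24. Atf4, whose product acts at amino acid response elements, fell at Week 6 by 0.68 ± 0.20 (adjusted p = 0.0134) and was not called at the other times. With the array set in the model 1, 2 and 1 of the 5 regulators rose and 0 fell, so the call of Atf4 ended.

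Slc1a4, the neutral amino acid exchanger ASCT1, had log2 intensities of 5.80, 6.32 and 6.44 in Naive, 7.87, 7.79 and 7.12 at Week 1, 6.69, 6.51, 7.61 and 6.79 at Week 4 and 7.91, 7.69 and 6.80 at Week 6. The TAA arrays all lay above Naive, though Week 4 only by a narrow margin. It rose by 1.41 ± 0.33 at Week 1 and 1.28 ± 0.33 at Week 6 (adjusted p = 0.00691 and 0.00689) and changed by 0.72 ± 0.31 at Week 4 without a call (adjusted p = 0.0960). The Week 6 call ended with the array set in the model (adjusted p = 0.0798). Slc38a2, the stress-responsive neutral amino acid transporter SNAT2, changed by 0.66 ± 0.34 at Week 1, -0.77 ± 0.32 at Week 4 and 0.31 ± 0.34 at Week 6 against Naive, none of them called on the tested probe. Week 4 was lower than Week 1, by a change of -1.44 ± 0.32 (adjusted p = 0.0144), and its second probe was lower by 1.10 ± 0.20 (adjusted p = 0.00686 with every probe tested). The arrays of the tested probe were at 7.72, 8.32, 8.70 and 7.97 at Week 4 and 9.42, 10.50 and 8.94 at Week 1, with no overlap, and with the array set in the model the call was lost (adjusted p = 0.175).

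Carriers of metals and haem held 2 genes that rose at all 3 times among 7 tested, beside 1 that fell. Slc48a1 encodes HRG1, which brings haem out of endosomes and lysosomes and is abundant in macrophages that clear red cells. Its log2 intensity was 8.33, 8.51 and 8.58 in Naive, 9.57, 9.84 and 9.34 at Week 1, 9.85, 9.67, 10.02 and 9.41 at Week 4 and 10.23, 9.96 and 10.06 at Week 6. All TAA arrays lay above all Naive arrays. It rose by 1.11 ± 0.19, 1.26 ± 0.18 and 1.61 ± 0.19 (adjusted p = 9.85e-04, 1.58e-04 and 3.48e-05), and with the array set in the model by 1.10, 1.26 and 1.60. Slc11a1 encodes NRAMP1, the metal exporter of the phagosome membrane of macrophages. Its tested probe had log2 intensities of 9.25, 9.53 and 9.17 in Naive, 10.68, 10.47 and 10.69 at Week 1, 10.07, 9.88, 10.04 and 10.01 at Week 4 and 10.23, 10.57 and 10.40 at Week 6. It rose by 1.29 ± 0.16, 0.68 ± 0.15 and 1.08 ± 0.16 (adjusted p = 1.50e-04, 0.00416 and 1.73e-04).

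The other 3 probes of Slc11a1 differed from it. One, detected on all 13 arrays, rose by 0.80 at Week 1 and changed by 0.27 and -0.06 at Week 4 and Week 6 without a call. The other 2 were detected on 6 and 4 arrays, with at most 1 Naive array and no Week 6 array among them, so their levels in these groups are mostly background values. The call of this gene at Week 6 rests on 1 of 4 probes. Slc31a1, the copper importer CTR1, fell by 0.70 ± 0.20, 0.91 ± 0.19 and 0.95 ± 0.20 (adjusted p = 0.0193, 0.00228 and 0.00200), the Week 1 call ending without Naive B or Week 1 A. Slc11a2, the divalent metal importer DMT1, changed by -0.44 ± 0.26, -0.38 ± 0.24 and -0.46 ± 0.26 without a call.

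Of 10 listed macrophage markers, 6 were tested, and 2 rose and 0 fell at Week 1, 3 rose and 0 fell at Week 4, and 2 rose and 1 fell at Week 6. Gpnmb and Trem2 rose at all 3 times, with fitted changes of 4.51, 3.86 and 4.55 and of 2.51, 2.19 and 2.66. No Naive array detected either gene, so these sizes rest on background values in Naive. Clec4f fell at Week 6 by 1.01 ± 0.31, and Adgre1 and Vsig4 changed there by -0.37 and -0.32 without a call. The median change of the 6 was 0.76, 0.61 and 0.06 at the 3 times. With the array set in the model it was 1.49, 0.61 and 1.16, and 4, 3 and 2 of the 6 rose and 0 fell. Cd68, Csf1r, Cd5l and Itgax were detected on no array. The summed intensity of the tested markers ran from 2390 to 2760 in Naive, 3150 to 6080 at Week 1, 3220 to 4010 at Week 4 and 2210 to 3860 at Week 6. The part of macrophage number in the rise of Slc48a1 and Slc11a1 was not tested.

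**Figure D4:**
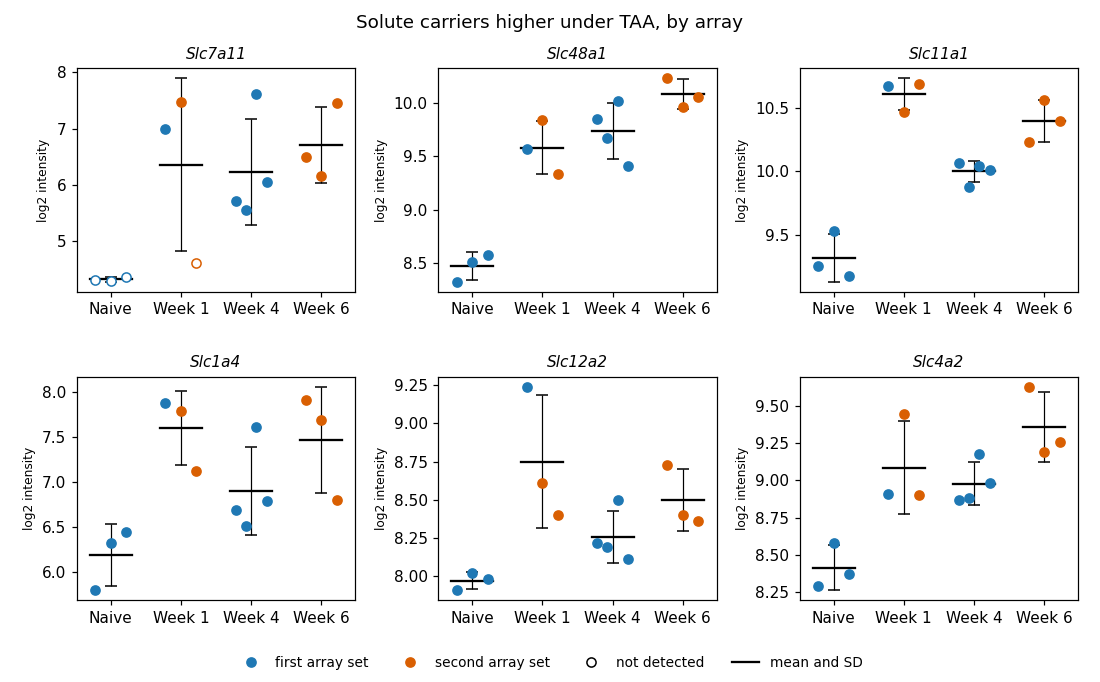
Log2 intensity of 6 solute carriers on each array, with the mean and SD of each group as bars, colour for the array set and open circles where the probe was not detected. Slc48a1 and Slc11a1 lie above Naive on every TAA array, and Slc7a11 is undetected on the 3 Naive arrays and on Week 1 C.

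Of 8 carriers of lipids 0 rose and 2 fell at Week 1, and 2 rose and 2 fell at Week 4 and at Week 6. The fallers were Slc27a2 and Slc27a1, and the risers were Slc27a3 and Slc44a3, of which Slc44a3 lost its Week 6 call with the array set in the model (adjusted p = 0.637). No Naive array detected Slc27a3, and at Week 4 no bound can be given for it. Its Week 4 call ended without Naive B, Naive C or Week 4 A. That call also ended under median scaling, without background correction, with a larger offset and in the value table of the authors. The Week 4 call of Slc44a3 ended without Naive B, Naive C, Week 4 A or Week 4 D. Slc27a2, a fatty acid transport protein that also activates very long-chain fatty acids, had log2 intensities of 12.71, 12.68 and 12.91 in Naive, 11.35, 11.30 and 11.63 at Week 1, 11.44, 12.10, 11.65 and 11.93 at Week 4 and 11.93, 11.37 and 11.54 at Week 6. No TAA array reached the Naive range. It fell by 1.34 ± 0.20, 0.99 ± 0.19 and 1.15 ± 0.20 (adjusted p = 4.55e-04, 0.00157 and 5.74e-04). Slc27a1, a fatty acid transporter best known from muscle and fat, was at least 1.20-fold lower at Week 1 and at least 1.35-fold lower at Week 6 (adjusted p = 0.00178 and 6.14e-04), and fell by 0.57 ± 0.19 at Week 4 (adjusted p = 0.0331). At Week 4 it was detected on 1 of 4 arrays. Its 3 calls ended under median scaling, the Week 4 call ended without any 1 array but Week 4 B, and the Week 6 call ended with the array set in the model (adjusted p = 0.117). Slc44a1, a choline transporter, changed by -0.04 ± 0.25, -0.22 ± 0.23 and -0.14 ± 0.25 without a call.

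Of the 9 sugar carriers, 1 rose and 3 fell at Week 1, 0 rose and 2 fell at Week 4, and 1 rose and 1 fell at Week 6. Slc2a8, the intracellular glucose transporter GLUT8, fell at Week 1 by 1.46 ± 0.33 (adjusted p = 0.00612), with arrays at 5.47, 6.34 and 4.59 there and at 6.97, 6.86 and 6.94 in Naive, a call that ended with the array set in the model (adjusted p = 0.0644). Slc37a4, which admits glucose 6-phosphate to the endoplasmic reticulum for glucose release, fell at Week 4 by 0.94 ± 0.33 (adjusted p = 0.0492), a call that ended when any 1 array but Week 4 B was left out. Slc2a1, the glucose transporter GLUT1, changed by 0.53 ± 0.22 at Week 1, 0.21 ± 0.20 at Week 4 and 0.18 ± 0.22 at Week 6 without a call. Slc50a1, a sugar exporter of the Golgi, rose by 0.57 ± 0.20 at Week 1 and 0.61 ± 0.20 at Week 6 (adjusted p = 0.0486 and 0.0248), the Week 1 call ending without Naive B, Naive C, Week 1 A or Week 1 B and the Week 6 call without Naive C or Week 6 C. Both ended with the array set in the model (adjusted p = 0.260 and 0.384).

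Of 18 carriers of nucleosides and nucleotide sugars, 1 rose and 3 fell at Week 1, 1 rose and 3 fell at Week 4, and 2 rose and 5 fell at Week 6. Slc29a1, the nucleoside transporter ENT1, had log2 intensities of 10.46, 10.96 and 10.51 in Naive, 9.54, 9.78 and 9.68 at Week 1, 9.43, 10.02, 9.52 and 9.85 at Week 4 and 9.61, 9.27 and 9.88 at Week 6, with no overlap between Naive and the rest. It fell by 0.98 ± 0.21, 0.94 ± 0.20 and 1.05 ± 0.21 (adjusted p = 0.00474, 0.00304 and 0.00151, the last being 0.0543 with the array set in the model). Slc35a3, which brings UDP-N-acetylglucosamine into the Golgi, fell by 0.67 ± 0.21 at Week 1 and 1.29 ± 0.21 at Week 6 (adjusted p = 0.0306 and 3.05e-04), the Week 1 call ending without Naive A, Naive C, Week 1 B or Week 1 C. Both calls ended with the array set in the model (adjusted p = 0.354 and 0.113). Slc35d1, which supplies the endoplasmic reticulum with UDP-glucuronic acid, rose at Week 1 by 1.12 ± 0.33 (adjusted p = 0.0219), and this call ended without Naive A or Week 1 B and with the array set in the model (adjusted p = 0.350). Array Week 1 B stood at 9.12, above 7.77 and 7.82 on the other 2 Week 1 arrays, and without it the change was 0.68.

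Among 16 carriers of bicarbonate, protons and inorganic ions, 2 rose and 2 fell at Week 1, 2 rose and 3 fell at Week 4, and 4 rose and 2 fell at Week 6. Slc26a1, the sulfate and oxalate exchanger of the sinusoidal membrane, fell by 0.87 ± 0.26, 1.33 ± 0.24 and 1.52 ± 0.26 (adjusted p = 0.0232, 0.001 and 4.30e-04). Slc8b1, the sodium-calcium exchanger of mitochondria, fell by 1.16 ± 0.39, 1.63 ± 0.36 and 1.14 ± 0.39 (adjusted p = 0.0395, 0.00390 and 0.0306). The Week 1 call of Slc26a1 ended without any Naive array or Week 1 C, that of Slc8b1 without any Naive array, Week 1 A or Week 1 C, and the Week 6 call of Slc8b1 without Naive A, Week 6 A or Week 6 B. The Week 1 and Week 6 calls of Slc26a1 ended with the array set in the model (adjusted p = 0.491 and 0.243), as did the Week 6 call of Slc8b1 (adjusted p = 0.0586). Slc4a2, the chloride-bicarbonate exchanger AE2 of hepatocyte canaliculi and bile ducts, rose by 0.67 ± 0.19, 0.56 ± 0.18 and 0.95 ± 0.19 (adjusted p = 0.0204, 0.0310 and 0.00160). Its Week 1 call ended without Naive A, Naive C or Week 1 B, and its Week 4 call without Naive A, Naive C, Week 4 C or Week 4 D. Both the Week 1 and the Week 6 call ended with the array set in the model (adjusted p = 0.234 and 0.205). Slc12a2, the sodium-potassium-chloride cotransporter NKCC1, had arrays at 9.24, 8.61 and 8.40 at Week 1 and at 7.91, 8.02 and 7.98 in Naive. It rose at Week 1 by 0.78 ± 0.21 (adjusted p = 0.0144), a call that ended without Week 1 A, where the change was 0.53.

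Of 7 vitamin and cofactor carriers 0 rose and 2 fell at Week 1 and at Week 4, and 2 rose and 2 fell at Week 6. Slc46a1, the proton-coupled folate transporter, fell by 1.16 ± 0.22, 0.62 ± 0.20 and 1.01 ± 0.22 (adjusted p = 0.00168, 0.0325 and 0.00220), the Week 4 call ending without any Naive array, Week 4 A or Week 4 C. Of 3 peptide carriers, Slc15a4, which exports histidine and peptides from endolysosomes, fell at all 3 times on its tested probe. The falls were 0.74 ± 0.21, 0.76 ± 0.19 and 1.18 ± 0.21, and the Week 1 call ended without Naive A, Naive C or Week 1 A. A second probe of Slc15a4, detected on 9 arrays, changed by 0.03, -0.18 and -0.49, without a call when every probe was tested. Of 4 monocarboxylate carriers, Slc16a10, which carries aromatic amino acids, fell by 0.81 ± 0.21, 0.70 ± 0.20 and 1.04 ± 0.21, with the Week 1 call ending without Naive C and the Week 4 call without Naive B, Naive C or Week 4 A. The calls at Week 1 and Week 6 ended with the array set in the model (adjusted p = 0.196 and 0.238). The 2 members of the sodium-coupled family Slc5 had 0 calls in limma at any of the 3 times, with an unadjusted p under 0.05 for 0, 1 and 0 of them.

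Slc11a1 (its tested probe), Slc17a4, Slc22a26, Slc27a2, Slc48a1 and Slc6a12 were the 6 named genes that were called at all 3 times and kept each call without each array in turn and in every other alternative in which their probe was tested. Slc17a2 and Slc35e2, a nucleotide sugar transporter relative, did so for the 2 times and the 1 time at which they were called, and Slc23a3 for Week 6. Under median scaling the Week 1 calls of Slc17a3, Slc22a7, Slc26a1 and Slc35a3 and the Week 4 call of Slc37a4 ended.

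Between treated groups fewer genes differed. Week 6 was higher than Week 1 for 7 solute carriers and lower for 4 (5.28% and 3.9% of all genes), Week 4 was higher than Week 1 for 2 and lower for 3 (4.4% and 4.41%), and Week 6 was higher than Week 4 for 3 and lower for 3 (2.22% and 3.09%). The 7 that were higher at Week 6 than at Week 1 were Slc27a3, Slc23a3, Slc6a8, Slc52a3, Slc12a8, Slc4a3 and Slc44a3. The 4 that were lower were Slc22a26, Slc17a3, Slc17a2 and Slc15a3, an endolysosomal carrier of histidine and peptides. The 7 carry or are related to carriers of fatty acids (Slc27a3), ascorbate (Slc23a3), creatine (Slc6a8), riboflavin (Slc52a3), cations with chloride (Slc12a8), bicarbonate (Slc4a3) and choline (Slc44a3). Slc6a8 had log2 intensities of 6.13, 6.35 and 6.90 in Naive, 6.93, 6.63 and 6.72 at Week 1, 7.48, 7.39, 7.10 and 6.98 at Week 4 and 7.81, 7.49 and 7.98 at Week 6. It was higher at Week 6 than at Week 1 by 1.00 ± 0.22 (adjusted p = 0.0129) and than in Naive by 1.30 ± 0.22 (adjusted p = 4.05e-04). Slc52a3 was higher at Week 6 than at Week 1 by 1.23 ± 0.26 (adjusted p = 0.0102), and Slc44a3 by 0.90 ± 0.24 (adjusted p = 0.0320).

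Slc23a3 had log2 intensities of 4.74, 4.85 and 4.87 in Naive, 5.13, 5.52 and 4.97 at Week 1, 5.22, 5.35, 5.33 and 5.42 at Week 4 and 6.76, 5.80 and 6.27 at Week 6. It was detected on no Naive array, 1 Week 1 array and all Week 4 and Week 6 arrays, and its Week 6 arrays lay above all others. At Week 6 it lay at least 1.82-fold above Naive (adjusted p = 1.66e-04), and above Week 1 by 1.07 ± 0.22 (adjusted p = 0.00962). Slc27a3 at Week 6 lay at least 1.59-fold above Naive (adjusted p = 1.34e-04) and above Week 1 by 1.18 ± 0.24 (adjusted p = 0.00923). Slc12a8 at Week 6 was at least 1.63-fold higher than at Week 1 (adjusted p = 0.00416), where no array detected it, and Slc4a3 at least 1.30-fold higher (adjusted p = 0.00883), with no Naive or Week 1 array detecting it.

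The comparison of Week 6 with Week 1 can be made within the second set, which holds 3 Week 6 and 2 Week 1 arrays. There Slc27a3, Slc23a3, Slc6a8, Slc52a3, Slc12a8 and Slc4a3 differed by 1.39, 1.03, 1.08, 1.06, 1.42 and 0.97. None of these 6 overlapped over all arrays of Week 6 and Week 1, so no overlap within the set follows from that and is no separate check. With the array set in the model 6 solute carriers were higher at Week 6 than at Week 1 and 3 were lower (3.28% and 2.02% of all genes). The adjusted p of the 6 genes was then 0.00918, 0.0323, 0.0258, 0.0419, 0.0117 and 0.0341 in the same order, and that of Slc44a3 was 0.105. Without array Week 6 C the calls of Slc52a3 and Slc6a8 ended, that of Slc44a3 ended without Week 1 A, Week 6 A or Week 6 C, that of Slc17a2 without any 1 of the 6 arrays, and that of Slc15a3 without any 1 but Week 1 C. Under median scaling 0 solute carriers were called between Week 6 and Week 1, and 21 had an unadjusted p under 0.05. The counts of all genes under that setting are not given here. Of 7 bile duct markers 5 were tested, and 4 rose at Week 6 against Week 1 and 0 fell. Of the 5, 0 were called in limma with the array set in the model, and 5 had an unadjusted p under 0.05, as had 1769 of all 8027 genes. Their summed intensity ran from 134 to 153 in Naive, 160 to 318 at Week 1, 255 to 579 at Week 4 and 542 to 627 at Week 6, with Epcam and Spp1 detected on no array. Of 7 stellate cell and myofibroblast markers tested, 2 rose at Week 6 against Week 1, also with the array set in the model, and Lrat was detected on no array. The part of either cell type in these differences was not tested.

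**Figure D5:**
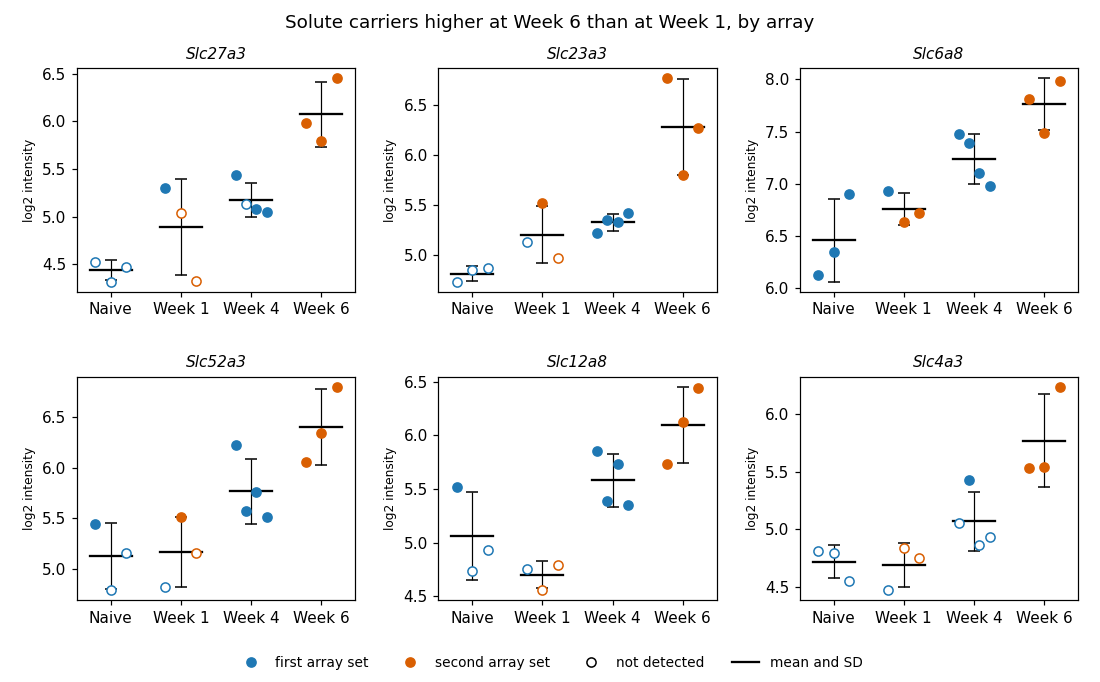
Log2 intensity on each array of 6 solute carriers that were higher at Week 6 than at Week 1, with the mean and SD of each group as bars, colour for the array set and open circles where the probe was not detected. The 3 Week 6 arrays lie above the 3 Week 1 arrays in each panel, which include those of the second set.

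Other transport genes were listed for comparison. Of 7 tested ATP-driven exporters of the ABC family 1 rose and 3 fell at Week 1 and at Week 4, and 1 rose and 4 fell at Week 6. Abcb11, the bile salt export pump, fell by 1.35 ± 0.24, 1.38 ± 0.23 and 2.48 ± 0.24, while Abcc2, which exports conjugates into bile, rose by 1.05 ± 0.27, 1.65 ± 0.25 and 1.32 ± 0.27. With the array set in the model the Week 1 and Week 6 calls of Abcc2 ended (adjusted p = 0.0828 and 0.0903). Those of Abcb11 held. Pdzk1, a scaffold that holds several carriers at the membrane, fell by 0.77 ± 0.19, 0.84 ± 0.18 and 1.17 ± 0.19. Of 2 tested sodium-potassium ATPase subunits 0 were called at any time, and 0 had an unadjusted p under 0.05. Of the 26 tested members of the left-out mitochondrial family Slc25, 0 rose and 6 fell at Week 1, 1 rose and 7 fell at Week 4, and 3 rose and 7 fell at Week 6. Among all genes 13.3%, 15.2% and 22.4% rose and 12.3%, 12.9% and 16.4% fell at the 3 times. With the array set in the model 0, 1 and 0 of the Slc25 members rose and 1, 7 and 0 fell. Of all genes 8.06%, 16.4% and 6.45% then rose and 6.24%, 13.8% and 5.18% fell.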

How the data were processed

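Total liver RNA was hybridised to 13 single-colour Illumina arrays. The deposited raw table holds, per the file headers, a probe intensity, not yet normalized, and a detection p-value for each of 25697 probes and each array. The submitters' processing notes name GenomeStudio, with a version not given in the sources used here. A value table deposited by the authors was read as a log2 scale, since its differences between groups followed those of quantile-normalized log2 intensities (r = 0.998, slope 0.905). Its normalization and centring are unstated. Its column medians were -0.000867, -0.000607 and -0.000975 in Naive, -0.00176, -0.00116 and -0.000485 at Week 1, -7e-04, 0.000287, 0.000198 and -0.000198 at Week 4, and 0.00115, 0.00134 and 3.67e-05 at Week 6. It served as an alternative only.

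Intensities were background-corrected, quantile-normalized and put on a log2 scale with the detection p-values (neqc, offset 16) in R 4.3.3 with limma 3.58.1. Of the probes, 11212 were detected at p under 0.01 on at least 3 arrays. A gene was tested on its passing probe with the highest mean over all arrays, giving 8027 genes. All 4 groups entered 1 limma model without covariates, and p-values were adjusted by Benjamini and Hochberg over all genes. The steps were tested on simulated data. The number of arrays limits the precision.

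The solute carriers named are, for each comparison with Naive, up to 10 called risers and 10 called fallers, ranked by size, whose arrays did not overlap, for each comparison between weeks up to 5 of either kind, and a fixed list whether called or not. The genes at the edge of the detection rule and those named after a carrier were added after their values were seen. The members and lists were chosen with earlier results of these data known. Classes follow the substrate of each family. Raw arrays carry letters that the labels do not tie to replicate numbers. In the value table, same-numbered samples of different groups correlated over 0.1 in 2 of 18 pairs (r from -0.339 to 0.237). These are correlations of deviations from means of few samples, so they cannot decide whether the numbers pair the samples. The labels do not state a pairing, and a replicate block was used as an alternative only. Alternatives were the background correction, normalization, filter, choice of probe, array weights, array set, groups in the fit, value table and each array left out. Promoters came from RefSeq, GRCm38.p6.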

Additional observations from a re-analysis of the deposited data

Results flagged for a closer look

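Among the 62 named solute carriers, 2 had a Week 4 array apart from the other 3, by a gap to the nearest array above Dixon's critical value for 4 samples. Chance gives about 1 in 20 groups, so the 2 found among 62 are no more than chance would give. Slc27a1, a fatty acid transporter, stood at 5.45 on array Week 4 B and next at 5, a gap of 0.885 of the range. It was detected on 1 of the 4 Week 4 arrays, so its other values there are background values. Slc6a9, a glycine transporter, stood at 8.23 on the same array and next at 7.79, a gap of 0.851 of the range.

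In 5 solute carriers the fitted change from Naive had opposite signs at different weeks, and the difference between the weeks was itself called in limma. In Slc12a8 and Slc4a3 the sign at Week 1 cannot be read, since no Week 1 array detected either and 1 and 0 Naive arrays did. The fitted difference of Slc12a8 was 0.87 between Week 4 and Week 1 and 1.39 between Week 6 and Week 1, which as bounds are at least 1.14-fold and 1.63-fold higher. That of Slc4a3 was 1.08 between Week 6 and Week 1, as a bound at least 1.30-fold higher. Slc15a3 changed by -0.29 at Week 6 and 0.54 at Week 1, a difference of -0.83. Slc16a9, a carnitine carrier, changed by -0.12 at Week 4 and 0.57 at Week 1, a difference of -0.69. Slc38a2 changed by -0.77 at Week 4 and 0.66 at Week 1, a difference of -1.44. Against Naive itself, Slc12a8 and Slc4a3 at Week 6 and Slc16a9 at Week 1 were called and the others were not. These 3 calls ended with the array set in the model (adjusted p = 0.101, 0.235 and 0.256), and that of Slc16a9 also ended whichever of the 6 arrays was left out. The weeks share the Naive arrays.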

How the results depend on the processing

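As reported, 38, 36 and 47 solute carriers were called against Naive at Week 1, Week 4 and Week 6, 5 between Week 4 and Week 1, 11 between Week 6 and Week 1 and 6 between Week 6 and Week 4. Of all 8027 genes 2051, 2260, 3118, 707, 737 and 426 were called in the same order. The counts that follow are mostly of solute carriers alone, so they do not tell a shift of theirs from a shift of all genes. Log2 quantile normalization without background correction, a normexp offset of 50 and the authors' value table kept each count within 1.5 times. Under median scaling the 3 counts between weeks were 11, 0 and 11. With every probe tested, 9 were called between Week 4 and Week 1 and 14 between Week 6 and Week 4. With genes detected on all 13 arrays alone, where fewer genes are tested, 31 were called at Week 6, 7 between Week 6 and Week 1 and 3 between Week 6 and Week 4, and with no detection filter 2 were called between Week 6 and Week 4. With only the 2 groups compared in the fit, 17 were called at Week 1, 56 at Week 4, 2 between Week 4 and Week 1 and 2 between Week 6 and Week 1. With array weights, 22 were called at Week 1, 58 at Week 4, and 1, 6 and 12 between weeks. With the array set in the model, 20 were called at Week 1, 18 at Week 6, 2 between Week 4 and Week 1 and 0 between Week 6 and Week 4. In that last comparison 0 of all 8027 genes rose and 0 fell. The value table with the replicate block gave 1, 3 and 0 between weeks, and the same samples without the block, an alternative chosen after seeing the data, gave 2, 7 and 0. Leaving out 1 array gave 21 to 37 calls at Week 1, 23 to 36 at Week 4, 40 to 43 at Week 6, 1 to 10 between Week 4 and Week 1, 4 to 15 between Week 6 and Week 1 and 0 to 7 between Week 6 and Week 4. The lowest counts came without Naive C in the comparisons with Naive, and without Week 4 C, Week 6 C and Week 6 A between weeks. Beside the counts of 0 in limma, 21 had an unadjusted p under 0.05 under median scaling, 17 with the array set, 12 with the replicate block, 18 with the same samples without it, 19 without Week 6 A and 16 without Week 6 C. Slc13a2 reversed between Week 6 and Week 4 under median scaling, to 1.35, and Slc36a1 at Week 6 with the array set in the model, to -0.03. Of 119 called values of named genes, 67 kept their call with the array set, 90 under median scaling, 82 with the replicate block and 102 in the value table. For other changes the cause was not tested. Genes near background have only bounds, arrays of Week 1 and Week 6 were dimmer, and Week 6 shares no array set with Naive or Week 4.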
